A study of Mus musculus with 6 samples.

Results

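Regulators linked to phenotype switching and invasion in melanoma were examined in B16F10 cells, an established mouse melanoma line. The 10 genes are the receptors Axl, Ngfr and Egfr, the transcription factors Zeb1, Zeb2, Snai1, Snai2, Twist1 and Sox9, and the secreted ligand Wnt5a. They were taken by symbol from a list of known regulators, with earlier results of these data known, and all 10 were found among the 27179 genes of the deposited table. RNA came from 6 samples of cells labelled WT, of which 3 received 0.01% ozonated olive oil (OZO) and 3 received 0.01% olive oil without ozone (OLO), each for 6 h in medium with serum. The samples of a group are described by the study as independent experiments. B16F10 is a single cell line kept in culture, so no stroma or immune cells of a tumor were present by design.

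The level of a gene is given here as the mean log2 CPM (read counts scaled to library size, on a log2 scale) that the authors deposited for the 6 libraries together. OLO and OZO are pooled in that mean, and it carries no spread between samples. Each library's own values were not analysed, and no difference between OZO and OLO is given or tested. Where a gene differed between the oils, its mean lies between the levels of both groups. In bulk RNA a low mean also cannot tell weak expression in every cell from expression in few cells. From the lowest value, shared by the 6025 genes without any read, the geometric mean of the library sizes used by voom (the authors' log2 transform of counts) was 19641945 reads, so 1 CPM stood for 19.6 reads per library. Total reads of each library were not analysed here.

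Melanoma cells can move between a differentiated state, driven by the melanocyte factor MITF, and a dedifferentiated, invasive state with little MITF. AXL, NGFR, EGFR, SOX9 and WNT5A are widely used marks of the second state. The ZEB, SNAIL and TWIST factors are repressors and activators that bind E-box sequences and are best known from the epithelial to mesenchymal transition. In the melanocyte lineage their use is split, since ZEB2 and SNAI2 belong to normal melanocytes whereas ZEB1 and TWIST1 are linked to dedifferentiated melanoma.

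Of the 10 genes, 4 had a mean of at least 1 CPM, namely Zeb2, Sox9, Snai2 and Axl. Over all 27179 genes the share at or above 1 CPM was 43.7%, and it was 56.2% over the 21154 genes with at least 1 read, so 4 of 10 (40%) was no larger than either share. Zeb1 and Ngfr lay just below 1 CPM, Snai1, Egfr and Wnt5a had geometric means of 0.895 to 2.12 reads per library with the 0.5 reads that voom adds to each count, and Twist1 had no read in any library. Among the members, the well measured ones were thus the pair Zeb2 and Snai2 together with Sox9 and Axl.

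**Figure D1:**
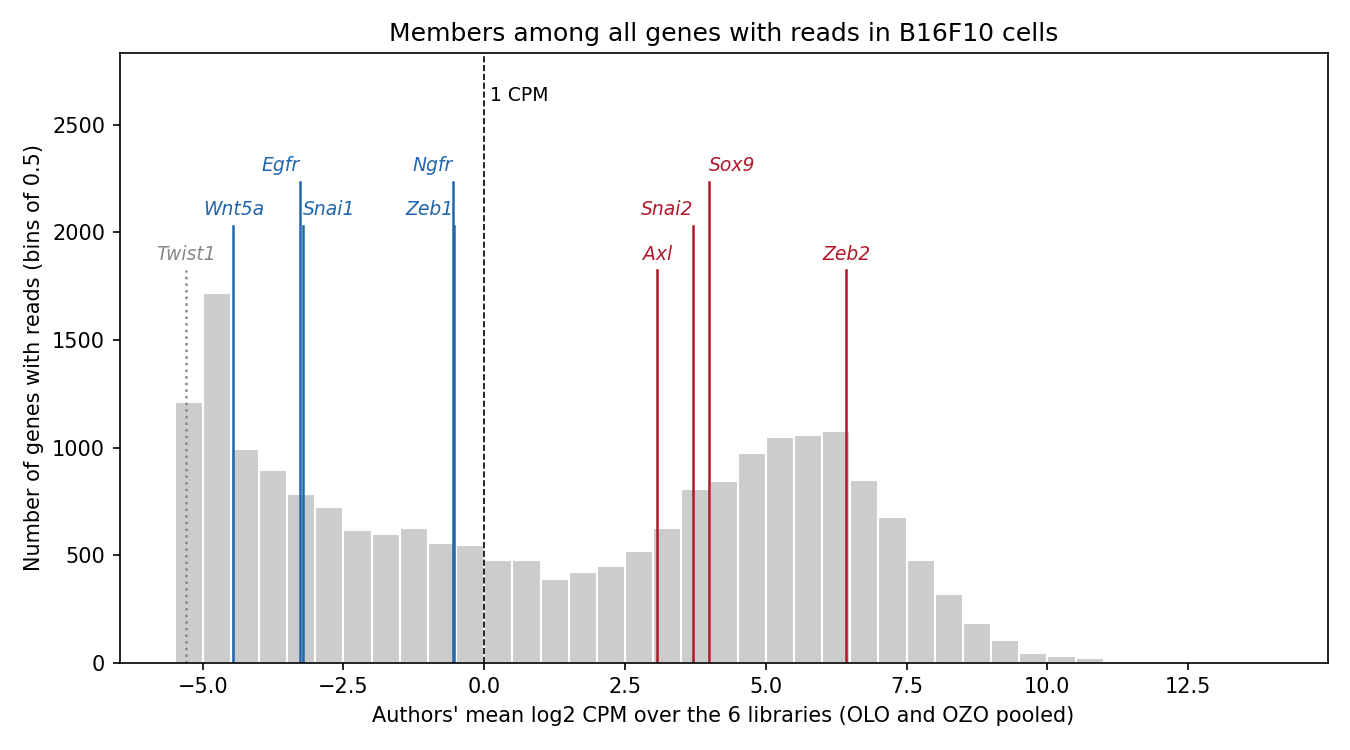
Number of genes with reads in bins of 0.5 of the authors' mean log2 CPM over the 6 libraries (grey bars), with the 10 members drawn as lines in red (at least 1 CPM), blue (below 1 CPM) or dotted grey (no reads). Zeb2 stood at 6.43, Sox9, Snai2 and Axl between 3.07 and 3.997, and the other members with reads below the dashed line at 1 CPM.

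Zeb2 had the highest mean of the members, 6.43 on the log2 CPM scale or 86.0 CPM, which corresponds to a geometric mean of 1689 reads per library after the added 0.5. The gene encodes a zinc finger repressor required in the neural crest and in melanocytes, and lies on chromosome 2 of GRCm38 from 44983632 to 45117395 on the minus strand. Its relative Zeb1, on chromosome 18 from 5591860 to 5775467 on the plus strand, had a mean log2 CPM of -0.54, or 0.686 CPM, with a geometric mean of 13.5 reads per library. Levels of different genes can be compared only per length, and per kb of annotated exon Zeb2 was at 2.11 and Zeb1 at -3.90 log2 CPM per kb. Zeb2 was thus 64.5-fold higher than Zeb1 per kb of exon, and 79.6-fold higher when the longest transcript of each gene set the length. The first difference, 6.01 on the log2 scale, has a standard error of 0.16 from the counting of reads alone, with the spread between samples not included. The paralogs were therefore far apart in these cells under both lengths. Zeb2 overlaps 5 other annotated genes, among them its antisense gene Zeb2os, and 4 of the 5 lie on the opposite strand. Zeb1 overlaps 3 genes, of which 2 lie on the opposite strand, Egfr overlaps its antisense gene Egfros, and Wnt5a overlaps Gm2670 on the opposite strand. Whether reads were counted by strand is not given in the sources used here, so reads of these partners could be part of the values of Zeb2, Zeb1, Egfr and Wnt5a.

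The SNAIL family showed the same kind of split. Snai2 (Slug), a repressor needed for melanocyte development, lies on chromosome 16 from 14705852 to 14709385 on the plus strand and averaged 3.71 log2 CPM, or 13.0 CPM, with a geometric mean of 256 reads per library. Snai1 (Snail), a repressor of E-cadherin, lies on chromosome 2 from 167538195 to 167542814 on the plus strand. Snai1 averaged -3.21 log2 CPM, or 0.108 CPM, which is a geometric mean of 2.12 reads per library with the added 0.5. Per kb of exon the means were 2.69 for Snai2 and -3.91 for Snai1, a difference of 6.60 on the log2 scale. At so low a mean of Snai1, the added 0.5 weighs on this difference, which is a description and no bound. The third family member, Snai3, had a geometric mean of 0.721 reads per library with the added 0.5, close to no reads.

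Twist1, a basic helix-loop-helix factor of mesoderm and neural crest, lies on chromosome 12 from 33957671 to 33959829 on the plus strand. It had 0 reads in the 6 libraries. Such a count allows up to 3 reads over all libraries, or 0.0255 CPM, which is a limit of 0.0156 CPM per kb from counting error alone. Against this limit, with the means of Snai2 and Zeb2 taken as deposited and without their own counting error, Snai2 was at least 413-fold higher and Zeb2 at least 276-fold higher per kb of exon. Its paralog Twist2 was close to no reads, with a geometric mean of 0.600 reads per library after the added 0.5. The helix-loop-helix partners of TWIST proteins were measured well, with Tcf12 at 4.20, Tcf3 at 2.89 and Tcf4 at 0.80 log2 CPM per kb. So of the 5 ZEB, SNAIL and TWIST members, Zeb2 and Snai2 were above 1 CPM, and Zeb1, Snai1 and Twist1 below it.

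Sox9, a SOX factor of cartilage and neural crest that is set against its relative SOX10 in melanoma, lies on chromosome 11 from 112782224 to 112787760 on the plus strand. It averaged 3.997 log2 CPM, or 15.97 CPM, with a geometric mean of 314 reads per library. Per kb of exon Sox9 was at 1.95 log2 CPM and Sox10, which maintains the melanocyte lineage, at 5.15. Sox10 was therefore 9.21-fold higher than Sox9 per kb of exon, a log2 difference of 3.20 with a standard error of 0.036 from counting alone. Both genes were clearly expressed in the cells as a whole, and bulk RNA does not show whether the same cells held both. Sox8, the remaining gene of this SOX group, averaged 0.132 CPM.

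The order of the 3 strongest members depended on the length used. Per kb of all exon bases it was Snai2 at 2.69, Zeb2 at 2.11 and Sox9 at 1.95, whereas per kb of the longest transcript Zeb2 came first at 3.24, ahead of Snai2 at 2.69. Zeb2 has 29 annotated transcripts with 19942 exon bases in all, against 9124 bases in the longest. No order among Snai2, Zeb2 and Sox9 is therefore read from these values, while all 3 lay above Axl under both lengths.

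**Figure D2:**
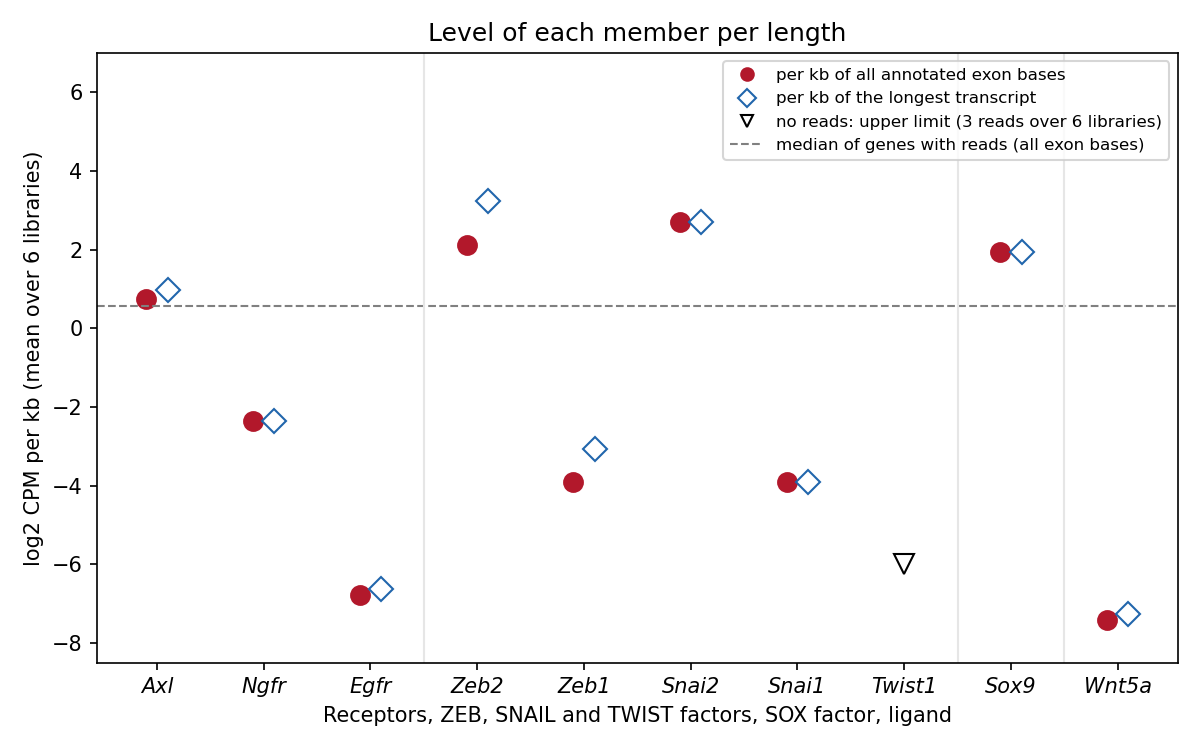
Mean log2 CPM per kb over the 6 libraries for each member, with the length taken from all annotated exon bases (red circles) or from the longest transcript (open blue diamonds); the open triangle is the upper limit for Twist1, which had no reads. Snai2, Zeb2, Sox9 and Axl lay above the dashed median of genes with reads (0.57), whereas Zeb1, Ngfr and Snai1 lay between -2.35 and -3.91 and Egfr and Wnt5a below -6.

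Among genes with reads and a known length, 19149 in all, Snai2 exceeded 68.0% in level per kb of exon, Zeb2 61.7%, Sox9 60.2% and Axl 51.0%. Ngfr exceeded 35.2%, and Zeb1 and Snai1 each 25.8%. Egfr exceeded 3.59% and Wnt5a 1.12%. All members thus ranked below Mitf, which exceeded 95.3%, and Sox10, which exceeded 93.3% of the genes.

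Axl was the only one of the 3 receptors with at least 1 CPM. This receptor tyrosine kinase, encoded on chromosome 7 from 25757273 to 25788705 on the minus strand, averaged 3.07 log2 CPM, or 8.42 CPM, with a geometric mean of 165 reads per library. Per kb of exon its level was 0.74 log2 CPM, close to that of its relative Tyro3 at 0.55 and above Mertk at -0.71. Axl and Tyro3 changed places when the longest transcript set the length, so they are not ordered here. Of the ligands of this receptor family, Pros1 (protein S) was at 3.31 log2 CPM per kb and Gas6, the ligand of highest affinity for AXL, at -3.98 log2 CPM per kb, with a mean of 0.161 CPM before the length correction. Between these ligand genes Pros1 was thus the higher, and the transcript of the AXL ligand of highest affinity was weak.

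Ngfr encodes the low-affinity neurotrophin receptor p75, a mark of neural crest-like melanoma cells, on chromosome 11 from 95568818 to 95587735 on the minus strand. Its mean was -0.56 log2 CPM, or 0.677 CPM, with a geometric mean of 13.3 reads per library. At -2.35 log2 CPM per kb Ngfr was 8.51-fold lower than Axl. The neurotrophin genes Bdnf and Ntf3 were weak as well, with 0.479 and 0.0367 CPM. Sort1 (sortilin), which acts as a co-receptor of p75 for the uncleaved ligands, was the highest gene of the receptor list at 5.33 log2 CPM per kb.

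Egfr, the epidermal growth factor receptor, lies on chromosome 11 from 16752203 to 16918158 on the plus strand. Its mean of -3.27 log2 CPM, or 0.103 CPM, stands for a geometric mean of 2.03 reads per library with the added 0.5. Because voom adds the same 0.5 to each count, the deposited mean of a weak gene fixes the product of its read counts (doubled, plus 1) over the 6 libraries. For Egfr this product was 4485, which no more than 4 libraries with reads can give, so at least 2 of the 6 libraries held no Egfr read, and all 6 together held between 20 and 2242 reads. The other receptors of the family differed widely, with Erbb3 at 2.23 and Erbb2 at 1.01 log2 CPM per kb, both above 1 CPM, whereas Erbb4 was at 0.0999 CPM. Among ligands of EGFR, Hbegf (7.48 CPM) and Tgfa (9.03 CPM) were expressed and Egf was at 1.62 CPM. Areg, Ereg and Epgn had no reads, and Btc was at 0.0649 CPM.

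Wnt5a, a WNT ligand that acts mostly without beta-catenin and promotes melanoma cell motility, lies on chromosome 14 from 28504750 to 28527448 on the plus strand. Its mean was the lowest of the members with reads, -4.46 log2 CPM or 0.0456 CPM. The product of its counts was 33, which leaves 2 possibilities, namely 16 reads in 1 library, or 1 read in 1 library and 5 in another. At least 4 of the 6 libraries therefore held no Wnt5a read. Per kb of exon the mean of Egfr was 0.65 higher than that of Wnt5a on the log2 scale, with a standard error of 0.75 from counting alone, so this order lies within the counting error. Its relatives were weak as well, with 0.364 CPM for Wnt5b and 0.0811 CPM for Wnt11. Of the receptors, Ryk reached 4.65 and the frizzled receptor Fzd7 3.77 log2 CPM per kb, followed by Dvl1, a cytoplasmic transducer of WNT signals, at 2.51. The kinases Ror1 and Ror2, the best known receptors of WNT5A in melanoma, were close to no reads with 0.0367 and 0.0306 CPM. In all, 10 of the 15 genes of the WNT5A list had at least 1 CPM (66.7%). The share was 43.7% of all genes and 56.2% of genes with reads, differences that were not tested.

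The same product gave limits for the other weak members. Snai1, with a product of 5775, had reads in at most 5 libraries and between 13 and 2887 reads in all. Ngfr had at least 96 and Zeb1 at least 82 reads over the 6 libraries, and for both genes reads in all 6 libraries were possible. Snai1, Egfr and Wnt5a were thus each without reads in at least 1 sample, whereas this cannot be said of Ngfr and Zeb1.

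SNAIL and ZEB proteins bind the E-box CAGGTG, and the RefSeq promoter windows of the members (GRCm38.p6, 250 bases before to 50 after a start site) were searched for it on both strands. Windows were found for 6 members, namely Zeb2, Snai1, Axl, Egfr, Ngfr and Twist1. The E-box was in the window of 1 of the 6, that of Snai1, and in a window of 22.6% of all 27025 genes. In Snai1 it starts 126 bases before the start site, in the orientation CACCTG. It is shown on the plus strand at chr2:167538049-167538094 with the E-box in capitals, because it is the only match among the members.

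Snai1: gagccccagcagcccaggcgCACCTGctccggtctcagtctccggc

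A match is a description of the letters and does not show that a factor binds there. In the other 5 genes, the searched windows do not hold these letters.

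The label of the cells was checked against 18 melanocytic markers. Of these, 14 had at least 1 CPM, and their median level was 4.46 log2 CPM per kb, above that of 88.2% of genes with reads. The pigment genes Tyrp1, Pmel and Dct led with 11.0, 10.4 and 10.2 log2 CPM per kb. Mitf was at 5.54, which is 27.8-fold above Axl, 12.0-fold above Sox9, 10.8-fold above Zeb2 and 7.20-fold above Snai2 per kb of exon. Per kb of the longest transcript Mitf was 29.9-fold above Axl, 15.3-fold above Sox9, 6.26-fold above Zeb2 and 9.14-fold above Snai2. The 4 markers below 1 CPM were Oca2, Irf4, Ednrb and Cdh1. In contrast, all 6 keratinocyte or epithelial markers were below 0.1 CPM, with Epcam (0.0529 CPM), Krt14 and Krt10 (both 0.0306 CPM) highest per kb, and Krt5 had no reads. The cells thus carried high levels of melanocytic transcripts beside the intermediate levels of Snai2, Zeb2, Sox9 and Axl.

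Of 30 other effectors and targets of the invasive state, 23 had at least 1 CPM (76.7%). The share was 43.7% of all genes, 56.2% of genes with reads and 40% of the members, differences that were not tested. Per kb of exon, the median of this list exceeded 49.5% of genes with reads and a known length. The intermediate filament gene Vim was highest at 7.39 log2 CPM per kb, followed by Sparc, a matricellular protein, at 5.95 and the AP-1 gene Jun at 5.88. Cdh2 (N-cadherin) was at 3.93 and Cdh1 (E-cadherin), a target of ZEB and SNAIL repression, at -3.99 log2 CPM per kb, a 243-fold difference. Cdh3 (P-cadherin) was at 0.0664 CPM. The AP-1 gene Fosl1, the matrix gene Tnc, the integrin gene Itga3 and Ednra, which go with the invasive state in melanoma, all had low geometric means, from 0.785 to 1.23 reads per library after the added 0.5. The list was thus uneven, with vimentin, SPARC and N-cadherin transcripts abundant and several others at geometric means near those of genes without reads.

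Of 17 relatives and partners of the transcription factors, 9 had at least 1 CPM (52.9%). This lies between the shares of all genes (43.7%) and of genes with reads (56.2%). The list was led by Sox10, the corepressor gene Ctbp1 (5.13) and Id2 (4.31 log2 CPM per kb), an inhibitor of helix-loop-helix factors. The epithelial regulators Ovol1, Ovol2, Grhl2, Esrp1 and Esrp2, which oppose ZEB factors in epithelia, were all below 1 CPM, from 0.0480 CPM for Esrp1 to 0.717 CPM for Grhl2. Of the 18 ligands and relatives of the receptors, 9 had at least 1 CPM (50%), also between the shares of all genes and of genes with reads.

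**Figure D3:**
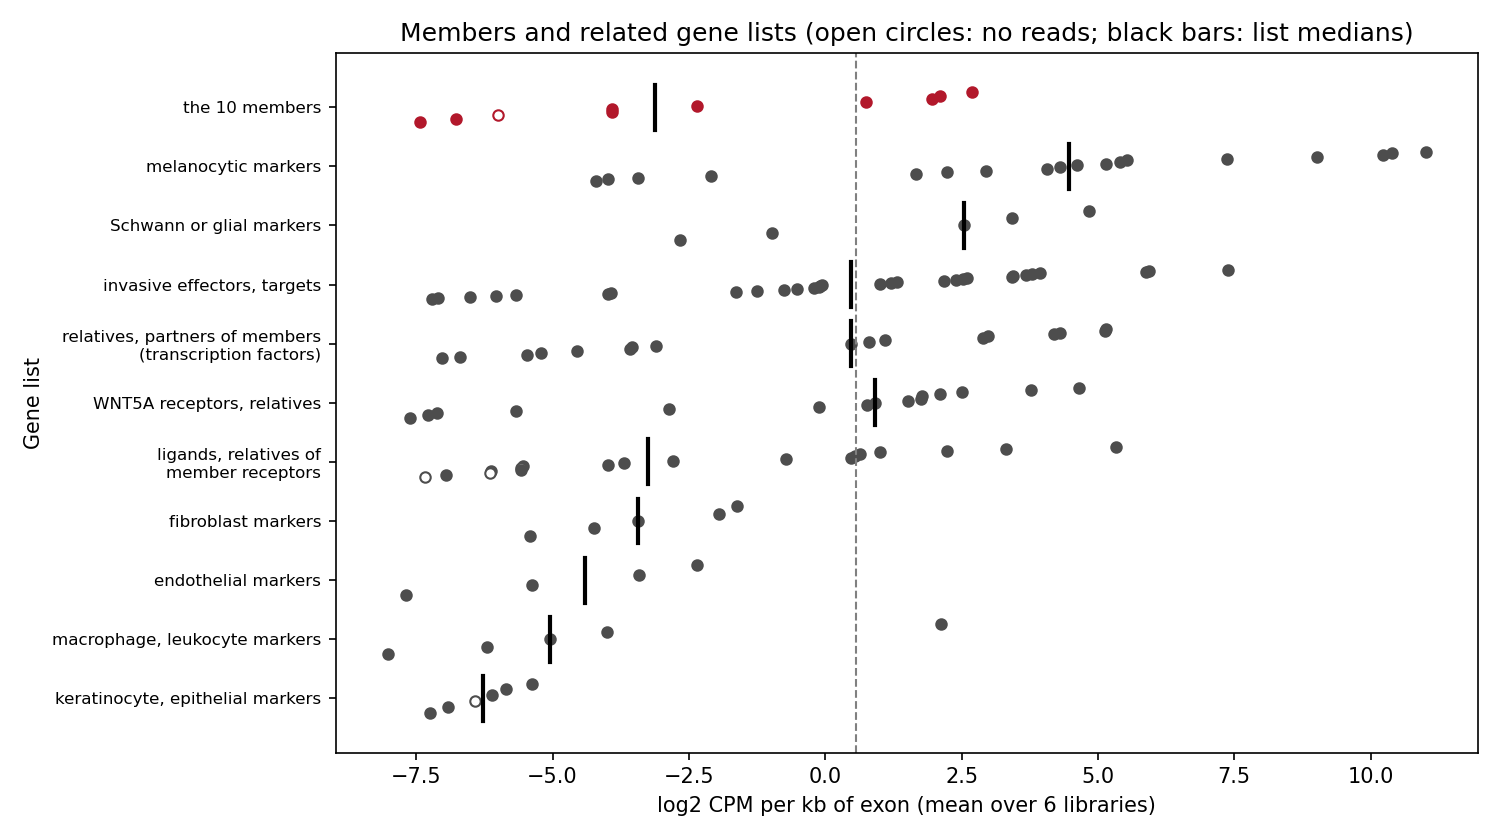
Mean log2 CPM per kb of exon over the 6 libraries for the 10 members (red) and for the genes of 10 lists (grey). Each circle is 1 gene, open where the gene had no reads, so that its place on the level axis reflects only its length. Black bars are list medians and the dashed line is the median of genes with reads. The melanocytic markers had the highest list median (4.46) and the keratinocyte or epithelial markers the lowest (-6.27), with the members at -3.12.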

How the data were processed

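Libraries were made from total RNA with a directional kit. HISAT2 (2.1.0) placed the reads on mm10 and featureCounts (2.1.1) assigned them to genes, after which the authors compared OZO with OLO by limma-voom (3.58.1). The deposited mean log2 CPM over the 6 libraries was used. The 5 columns with the authors' own comparison (log2 fold change, moderated t, p-value, adjusted p-value and log odds) were not used, and no test was made.

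With Python 3.11.15 and pandas 2.3.3, the library size and the products of reads were solved from the formula of voom, after tests on simulated counts. For all 8941 genes with a product under 1000000000 the product was an odd whole number (tolerance 0.001). Lengths and positions came from GENCODE M21 (GRCm38, the same assembly as mm10), which held 23791 of the 27179 genes under a unique identifier. Lengths used by the authors' counting were not given in the sources used here.

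The members and lists were chosen with earlier results of these data known. Named were all members, the 3 highest genes of each list and genes without reads, except where a gene is not reported here. Other list genes were named after their values were seen, and the remaining ones enter only the counts and medians. Alternatives were another length, other sets of genes for ranks, and limits of 0.5 and 2 CPM.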

Additional observations from a re-analysis of the deposited data

How the results depend on the processing

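No paired analysis was possible because each gene had 1 mean over all 6 libraries. For the same reason another normalization, another filter, a replicate block and leaving out each library were not run. The mean has no spread between samples, and below a few reads per library the added 0.5 and the length set much of a level per kb.

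On the log2 scale, Zeb2 minus Zeb1 was 6.01 per kb of exon and 6.97 without a length correction. Snai2 minus Zeb2 was 0.58 per kb of exon, -0.55 with the longest transcript and -2.72 without a length correction, and so turned its sign with the length used. Sox10 minus Sox9 was 3.20, 3.34 and 2.76 in the same order. With limits of 0.5 and 2 CPM, 6 and 4 members passed, in place of 4. Among protein-coding genes 3 members lay above the median gene, in place of 4, since Axl then exceeded 47.6%. The ranks moved more. Without a length correction Zeb2 exceeded 85.0% of genes in place of 61.7%, a shift of 23.4 percentage points, Egfr 22.1% in place of 3.59% and Wnt5a 12.3% in place of 1.12%. With all rows ranked, the 9 members with reads moved up by at most 11.1 points.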

Other observations

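Transcripts of Schwann and glial cells, which share the neural crest origin of melanocytes, were present beside those of the melanocytic program. Of 5 such markers 4 had at least 1 CPM in the mean of the 6 libraries. S100b was highest at 4.84 log2 CPM per kb, followed by the myelin gene Mbp at 3.43. By comparison Ngfr, also a gene of immature Schwann cells, was at -2.35 log2 CPM per kb. Of 5 fibroblast markers, Pdgfra (3.28 CPM), Col1a1 (1.70 CPM) and Col1a2 (1.15 CPM) passed 1 CPM. Dcn (0.308 CPM) and Lum (0.0577 CPM) were below it. Cd68, a lysosomal gene expressed in many cell types, was at 5.47 CPM among the 5 macrophage or leukocyte markers, of which Csf1r (0.360 CPM), Cd14 and the others were below 1 CPM. Of the 4 endothelial markers, Pecam1 averaged 1.21 CPM, Tek 0.442 CPM and Cdh5 0.101 CPM. Which cells held the transcripts of these marker lists was not examined.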
